A study of Mus musculus with 8 samples.

Results

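Sox9, Sox5, Sox6, Acan, Hapln1, Comp, Matn1, Matn3, Chad and Cnmd are genes of cartilage and of the growth plate, the cartilage layer from which a long bone lengthens. They were chosen by symbol, with the collagens left out and with earlier results of these data known. All 10 were found among the 43346 genes of the count table. Their RNA levels were read by sequencing of fractions of bone in which osteocytes, the cells buried in mineralised matrix, had been enriched, from C57BL/6 mice aged 12 weeks. There were 3 libraries of the femur, a long bone, 3 of the frontal bone and 2 of the parietal bone, and the frontal and parietal bones, both flat bones of the skull vault, are together called calvaria here (5 libraries). The labels name no transgene, treatment or sex and do not say whether a library held 1 animal or a pool, and p-values therefore cover no more than the variation among these 8 libraries, which may be technical. The study compared the transcriptome of the 3 bones, and a library is called by its bone and the number its label carries (1, 2 or 4).

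In chondrocytes, the cells of cartilage, the transcription factor SOX9 switches on matrix genes together with its partners SOX5 and SOX6. Aggrecan, the product of Acan, carries chondroitin sulphate chains that hold water, and the link protein HAPLN1 ties it to hyaluronan, while COMP, the matrilins and chondroadherin connect collagen fibrils to the rest of the matrix and to cells. The femur forms on a cartilage template and keeps growth plates, whereas the frontal and parietal bones form directly within a membrane.

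Libraries held 6259229 to 13461622 gene counts, and 1 count was worth 0.0763 to 0.172 CPM (counts relative to a library total scaled by TMM, the trimmed mean of M values, and set to 1e+06). The osteocyte label was checked against 8 osteocyte markers. All 8 were detected in every bone, but their summed level was 23760 to 49290 CPM in femur and 724 to 1407 CPM in calvaria. In femur the sum was mostly Dmp1, at 43370, 42830 and 19480 CPM in libraries 1, 2 and 4. Of the 8 markers 7 fell in calvaria, and Fgf23 did not differ by a passing amount. The other contents differed as well. All 8 erythroid markers rose in calvaria, with summed levels of 11300 to 26400 CPM in femur and 59250 to 96060 CPM in calvaria, while 5 of 7 osteoblast markers fell, with sums of 40370 to 56680 and 3258 to 18680 CPM. The osteoblast sum was mostly Col1a1 and Col1a2 in every library, and Ibsp and Ifitm5 did not differ by a passing amount. Against femur, 4 of 7 osteoblast markers fell in frontal bone and 3 of 7 in parietal bone. Bglap was at 1302 and 1757 CPM in parietal libraries 2 and 4, within the femur range of 1208 to 2064 CPM. The part of these cells in the results below was not tested except where a value is given. In such bulk samples, fewer cells of a type and less RNA per cell cannot be told apart.

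The promoters of the members at the ends of the response are shown first: Chad and Acan, the 2 members with the largest fall in calvaria, and Sox6, the member that rose. RefSeq promoter sequences of 300 bases (250 before the gene start and 50 after it, GRCm38.p6) matched 8 of the 10 members, Sox9 and Comp being without an entry. The 250 bases before the start are printed 5′ to 3′ on the gene's strand, in lower case, with matches to 3 searched motifs in capitals. The first motif was the SOX core, found wherever the letters ACAAAG stood. The variant with the letters ACAATG was counted as a SOX core as well. The second motif was the TATA box, with the letters TATAAA. The third was the GATA site, with the letters AGATAA. Each was searched on either strand, and the SOX core and the GATA site can overlap.
Chad, chr11:94564797-94565046, plus strand: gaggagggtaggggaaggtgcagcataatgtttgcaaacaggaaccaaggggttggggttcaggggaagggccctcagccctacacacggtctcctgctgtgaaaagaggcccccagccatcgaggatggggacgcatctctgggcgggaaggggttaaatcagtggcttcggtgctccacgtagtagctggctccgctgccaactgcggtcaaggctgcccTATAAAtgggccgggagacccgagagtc
Acan, chr7:79052976-79053225, plus strand: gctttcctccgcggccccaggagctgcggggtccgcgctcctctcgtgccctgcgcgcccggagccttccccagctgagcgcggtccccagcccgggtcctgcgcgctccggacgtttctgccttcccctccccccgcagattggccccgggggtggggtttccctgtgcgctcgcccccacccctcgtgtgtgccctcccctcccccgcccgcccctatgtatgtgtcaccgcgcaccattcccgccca
Sox6, chr7:116038745-116038994, minus strand: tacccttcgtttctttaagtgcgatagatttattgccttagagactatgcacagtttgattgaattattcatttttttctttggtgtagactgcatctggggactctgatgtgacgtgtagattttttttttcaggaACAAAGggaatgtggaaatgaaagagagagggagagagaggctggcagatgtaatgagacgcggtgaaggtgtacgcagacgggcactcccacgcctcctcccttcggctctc

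The Chad promoter held a TATA box that begins 28 bases before the start, and no SOX core or GATA site in its 300 bases. The Acan promoter held none of the 3 motifs and was rich in CG dinucleotides, with 31 of them, and 90.5% of all promoters had as many or fewer. Sox6 had 6 listed promoters, and the one printed, the farthest upstream, held a SOX core that begins 113 bases before the start. By member, 2 of the 8 matched members held a SOX core in any listed promoter (Sox6, in 5 of its 6, and Sox5), 2 a TATA box (Sox6 and Chad) and 1 a GATA site (Sox6). The motifs occurred in 28.6%, 13.6% and 11.2% of all 32851 promoters of that length, and the promoters of Sox6 weigh 6 times in a count over promoters. A match is a run of letters, not a shown binding site.

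Between calvaria and femur, 1 member rose and 4 fell of the 8 with enough counts to be tested. Sox9, Acan, Comp and Chad were lower in calvaria and Sox6 was higher, and Sox5, Hapln1 and Cnmd did not pass an adjusted p of 0.05 (edgeR's quasi-likelihood test, Benjamini-Hochberg adjustment over 15511 genes). Of all genes tested, 31.4% were lower and 29.6% higher in calvaria. The median log2 fold change of the 8 tested members was -0.69, against 0.01 over all genes. Matn1 and Matn3 had too few counts for the test, and Acan and Chad entered it through femur libraries alone, so that only a fall in calvaria could be seen for them. For 4 members every calvarial library was below every femur library, which held for 27.5% of all genes, and for Sox6 every calvarial library was above, which held for 26% of all genes.

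**Figure D1:**
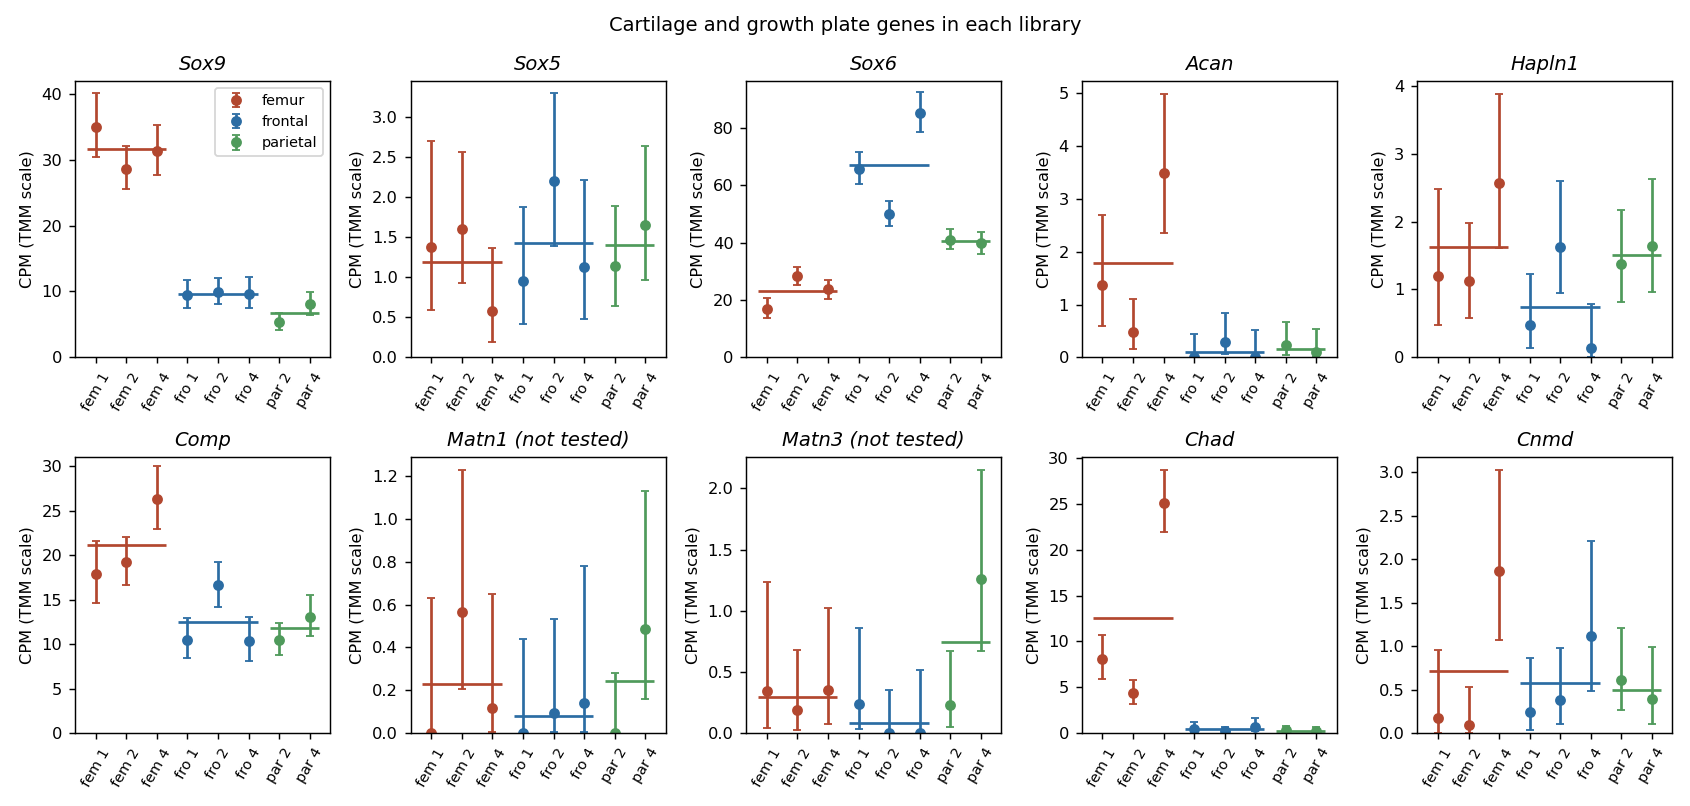
Level of the 10 members in each library in CPM on the TMM scale, on a linear axis that starts at 0 and differs between panels. Points are libraries, bars are exact 95% Poisson counting intervals and horizontal lines are bone means. Sox9 and Chad are higher in the 3 femur libraries, Sox6 in the 5 calvarial ones, and femur library 4 stands above femur libraries 1 and 2 for Acan, Chad and Cnmd.

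Among the Sox trio, Sox9 and Sox6 moved in opposite directions. Sox9, the lead regulator of chondrocyte fate (chromosome 11, 112782224 to 112787760, GRCm38), was at 35.0, 28.6 and 31.3 CPM in femur libraries 1, 2 and 4. Frontal libraries 1, 2 and 4 had 9.42, 9.92 and 9.66 CPM. The levels of parietal libraries 2 and 4 were 5.34 and 8.03 CPM. The femur values were close together and far above the rest, and both parietal values lay below the 3 frontal ones. Sox9 fell in calvaria, with a log2 fold change of -1.98 ± 0.16 (SE), a 3.93-fold difference (edgeR's quasi-likelihood test, adjusted p = 1.61e-06). The values were -1.71 ± 0.19 in frontal bone (adjusted p = 2.15e-05) and -2.25 ± 0.22 in parietal bone (adjusted p = 1e-05). Frontal bone stood 0.54 ± 0.22 above parietal bone, which did not pass (adjusted p = 0.136).

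Sox6 codes for a SOX9 partner that also acts in red cell precursors, where it helps to silence the embryonic globins (chromosome 7, 115470872 to 116038796). It was at 17.0, 28.3 and 23.6 CPM in femur libraries 1, 2 and 4. In frontal bone the values were 65.7, 50.0 and 85.3 CPM (libraries 1, 2 and 4). Parietal libraries 2 and 4 had 41.0 and 39.7 CPM. All calvarial values were above all femur values, and all 3 frontal values were above both parietal ones. Sox6 rose in calvaria by 1.17 ± 0.20 on the log2 scale, 2.24-fold (edgeR's quasi-likelihood test, adjusted p = 0.000382). It rose by 1.53 ± 0.22 in frontal bone (adjusted p = 0.000127) and by 0.80 ± 0.24 in parietal bone (adjusted p = 0.0134). The difference between frontal and parietal bone was 0.73 ± 0.24 and did not pass (adjusted p = 0.0777). It passed with DESeq2 (0.73, adjusted p = 0.0339) and without the filter on low counts (0.76, adjusted p = 0.00633). Without the filter, edgeR's quasi-likelihood test gave far smaller p-values. For Sox9 in calvaria the SE was 0.199 and the adjusted p 2.38e-21, against 0.165 and 1.61e-06 with the filter. The value of 0.00633 for Sox6 is therefore not comparable with 0.0777. Without parietal library 2 or 4, the rise in parietal bone was 0.75 or 0.78 and did not pass (adjusted p = 0.0761 and 0.0627).

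Erythroid markers moved with Sox6. Their summed level was 11300, 21310 and 26400 CPM in femur libraries 1, 2 and 4. For frontal libraries 1, 2 and 4 the sums were 84820, 59250 and 96060 CPM. Parietal libraries 2 and 4 had sums of 64890 and 67450 CPM. Femur library 1 was lowest and frontal library 4 highest in both measures, and within frontal bone both ranked library 4, library 1, library 2. The orders differed elsewhere: femur library 4 was above femur library 2 in the erythroid sum and below it in Sox6, and the parietal erythroid sums were above that of frontal library 2, while the Sox6 levels were below. Other blood cell markers also moved with Sox6. Granulocyte markers, of which 5 of 8 rose in calvaria, summed to 71380, 56230 and 73070 CPM in frontal libraries 1, 2 and 4, the same order as Sox6, with femur library 1 again lowest at 17190 CPM, but their highest sum was in parietal library 2, at 85560 CPM. B cell markers, of which 6 of 7 rose, summed to 199 to 265 CPM in femur and 585 to 756 CPM in calvaria. All 8 erythroid markers were detected in every library, among them Klf1, a regulator of red cell genes, at 22.3 ± 11.6 CPM in femur (SD, n = 3) and 99.2 ± 20.7 CPM in calvaria (SD, n = 5). The part of any of these cells in the Sox6 difference was not tested.

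**Figure D2:**
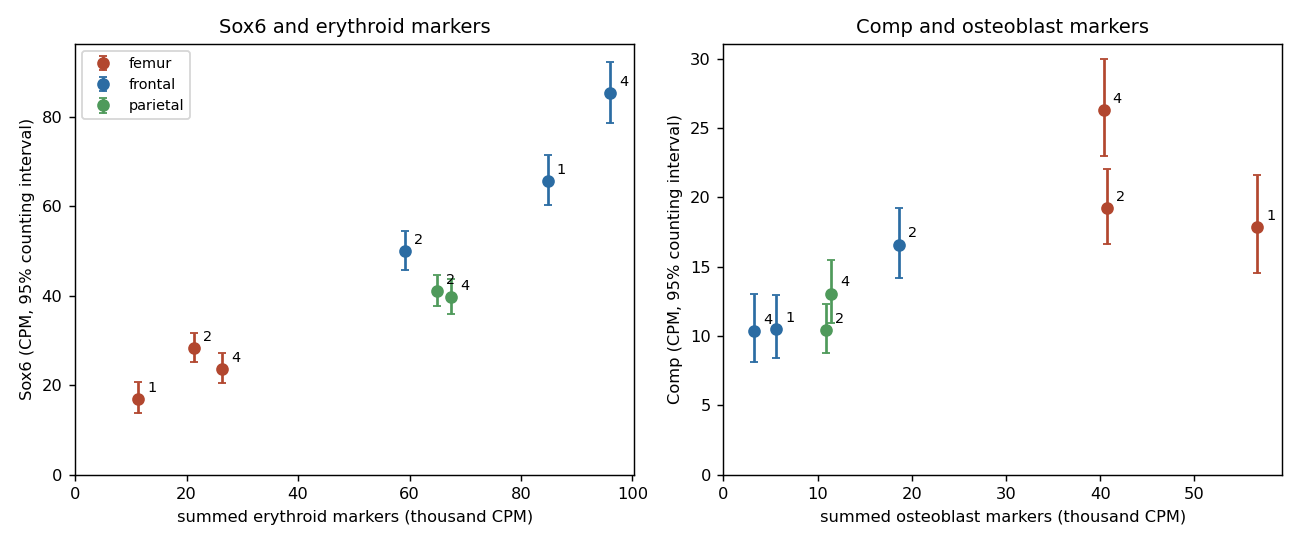
Left, Sox6 (CPM) against the summed level of 8 erythroid markers in each library. Right, Comp (CPM) against the summed level of 7 osteoblast markers. Points are libraries coloured by bone and labelled with their number, bars are exact 95% Poisson counting intervals, and both axes start at 0; Sox6 and the erythroid sum are both lowest in femur library 1 and highest in frontal library 4.

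A ratio within a library is free of the scaling between libraries. Per length of exon, Sox9 over Sox6 was 7.39, 3.63 and 4.75 in femur libraries 1, 2 and 4. Frontal libraries 1, 2 and 4 gave ratios of 0.514, 0.712 and 0.406. Parietal libraries 2 and 4 gave 0.467 and 0.726. Sox9 thus exceeded Sox6 in each femur library and Sox6 exceeded Sox9 in each calvarial one, with means of 5.26 ± 1.93 (SD, n = 3), 0.544 ± 0.155 (n = 3) and 0.596 ± 0.183 (n = 2) in femur, frontal and parietal bone.

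Sox5, the other SOX9 partner (chromosome 6, 143828425 to 144781977), was low in every bone. It was at 1.37, 1.60 and 0.582 CPM in femur libraries 1, 2 and 4, from 8, 17 and 5 counts. Frontal libraries 1, 2 and 4 had 0.954, 2.19 and 1.12 CPM. In parietal library 2 the level was 1.14 CPM and in library 4 1.65 CPM. The bones overlapped, and the difference of calvaria from femur was 0.25 ± 0.46 on the log2 scale (edgeR's quasi-likelihood test, adjusted p = 0.657). Its exons share 1330 bases with the antisense gene Sox5os1, and with no stated strand setting these reads cannot be assigned to one of them.

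Of the proteoglycan aggregate, Acan was low in femur and at or near 0 in calvaria. Acan (chromosome 7, 79053483 to 79115099) had 8, 5 and 30 counts in femur libraries 1, 2 and 4, or 1.37, 0.471 and 3.49 CPM. In frontal bone the values were 0, 3 and 0 counts (libraries 1, 2 and 4). Parietal libraries 2 and 4 had 3 and 1. Femur library 4 held most of the signal, and the highest calvarial value, 0.286 CPM in frontal library 2, was below the lowest femur value. Acan fell in calvaria, with a log2 fold change of -3.55 ± 0.84 (edgeR's quasi-likelihood test, adjusted p = 0.00309). Pooled over libraries, femur stood 12.1-fold above calvaria (exact 95% counting interval 5.41 to 32), from 43 and 7 counts. Against frontal bone, with 3 counts, the ratio was 14.9 (4.77 to 75). In parietal bone the value of -3.29 ± 1.07 passed (adjusted p = 0.0209), but not with limma-voom (-2.68, adjusted p = 0.0687), without parietal library 2 (-4.03, adjusted p = 0.0782) or without parietal library 4 (-2.92, adjusted p = 0.112). Without femur library 1 or 4 Acan did not reach the count minimum, and femur libraries 1 and 2 alone, with 13 counts, stood 5.58-fold above calvaria (2.07 to 16.5).

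Hapln1, the link protein gene (chromosome 13, 89539796 to 89611652), did not pass in any contrast. It was at 1.20, 1.13 and 2.56 CPM in femur libraries 1, 2 and 4, from 7, 12 and 22 counts. Frontal libraries 1, 2 and 4 had 0.477, 1.62 and 0.140 CPM. Parietal libraries 2 and 4 had 1.37 and 1.65 CPM. Both parietal values lay above femur libraries 1 and 2, and frontal library 2 was far above the other frontal libraries. Calvaria differed from femur by -0.57 ± 0.55 (edgeR's quasi-likelihood test, adjusted p = 0.393), frontal bone by -1.02 ± 0.65 (adjusted p = 0.206) and parietal bone by -0.13 ± 0.66 (adjusted p = 0.885). Without frontal library 2 the frontal value was -2.31 and passed (adjusted p = 0.0187), and without femur library 4 the parietal value was 0.36 (adjusted p = 0.702).

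Among the matrix adaptor proteins, Chad showed the largest difference of the tested members and Comp a small one. Chad, which codes for chondroadherin, a leucine-rich repeat protein that binds collagen and cells (chromosome 11, 94565047 to 94569127), was at 8.06, 4.33 and 25.1 CPM in femur libraries 1, 2 and 4. In calvaria it had 2 to 5 counts per library and 0.191 to 0.700 CPM. Every femur library was above every calvarial one, and femur library 4, with 216 counts, was far above femur libraries 1 and 2, with 47 and 46. Chad fell, with a log2 fold change of -5.19 ± 0.62 in calvaria (edgeR's quasi-likelihood test, adjusted p = 2.97e-05), -4.83 ± 0.74 in frontal bone (adjusted p = 0.00023) and -5.55 ± 0.90 in parietal bone (adjusted p = 0.000329). Pooled counts gave a ratio of femur to calvaria of 35.9 (22.1 to 62.4), and of 16.5 (9.74 to 29.4) without femur library 4. Without that library the log2 fold change was -4.15.

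Comp, which codes for cartilage oligomeric matrix protein, a thrombospondin also abundant in tendon (chromosome 8, 70373558 to 70382066), was at 17.8, 19.2 and 26.3 CPM in femur libraries 1, 2 and 4. In frontal bone the values were 10.5, 16.6 and 10.4 CPM (libraries 1, 2 and 4). The parietal values were 10.4 and 13.1 CPM (libraries 2 and 4). Frontal library 2 came close to the lowest femur library, and no calvarial value exceeded a femur one. Comp fell, with a log2 fold change of -0.80 ± 0.21 in calvaria, 1.74-fold (edgeR's quasi-likelihood test, adjusted p = 0.00553), -0.75 ± 0.24 in frontal bone (adjusted p = 0.0175) and -0.85 ± 0.27 in parietal bone (adjusted p = 0.0168). The frontal call was lost without femur library 4 (-0.57, adjusted p = 0.0712), without frontal library 1 (-0.64, adjusted p = 0.0729), without frontal library 4 (-0.63, adjusted p = 0.0664) and with library size as the only scaling (-0.61, adjusted p = 0.0624). The parietal call was lost without femur library 4 (-0.67, adjusted p = 0.0533) and without parietal library 2 (-0.72, adjusted p = 0.127).

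Frontal library 2 stood apart from the other frontal libraries in osteoblast markers too. Their sum, mostly Col1a1 and Col1a2, was 18680 CPM there, while frontal libraries 1 and 4 had 5617 and 3258 CPM. Parietal libraries 2 and 4 had 10910 and 11410 CPM. Sox9 (by a small margin), Sox5, Acan, Hapln1 and Comp were highest within frontal bone in that library. Sox6 was lowest there, and so was Chad at 0.191 CPM, from 2 counts against 4 and 5 in frontal libraries 1 and 4. In femur the sums were 56680, 40740 and 40370 CPM in libraries 1, 2 and 4, and Comp was highest in library 4. The part of osteoblasts in these levels was not tested.

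The matrilins 1 and 3 were close to undetected. Matn1 (chromosome 4, 130944385 to 130955475), a matrilin of cartilage, had 0, 6 and 1 counts in femur libraries 1, 2 and 4. Frontal libraries 1, 2 and 4 had 0, 1 and 1, and parietal libraries 2 and 4 had 0 and 5. Matn3 (chromosome 12, 8947929 to 8972028), a matrilin of the growth plate, had 2, 2 and 3 counts in femur, 2, 0 and 0 in frontal and 3 and 13 in parietal bone, in the same library order. Matn3 was highest in parietal library 4, at 1.26 CPM, and Matn1 there was at 0.484 CPM, close to 0.565 CPM in femur library 2. Pooled, femur over calvaria was 1.98 for Matn1 (exact 95% counting interval 0.591 to 6.6) and 0.768 for Matn3 (0.271 to 1.93), so that no difference of femur from calvaria was detectable at this depth. Between the skull bones, parietal over frontal was 2.77 for Matn1 (0.454 to 29.1) and 8.88 for Matn3 (2.09 to 79.6), the last from 16 and 2 counts, 13 of the 16 in parietal library 4. These intervals cover counting error and not the spread between libraries, and neither gene entered the main test. In the fit without the filter on low counts, neither gene passed in any contrast. There Matn3 in frontal against parietal bone was at -2.955 ± 1.242 (edgeR's quasi-likelihood test, adjusted p = 0.158).

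Cnmd, which codes for chondromodulin, a factor that keeps blood vessels out of cartilage (chromosome 14, 79637690 to 79662170), had most of its femur counts in 1 library. It had 1, 1 and 16 counts in femur libraries 1, 2 and 4, or 0.172, 0.0942 and 1.86 CPM. Frontal libraries 1, 2 and 4 had 0.238, 0.381 and 1.12 CPM. In parietal library 2 the level was 0.610 CPM and in library 4 0.387 CPM. Femur library 4 was the highest of the 8 and femur libraries 1 and 2 the lowest, so the femur range enclosed the calvarial one. Calvaria differed from femur by -0.44 ± 0.85 (edgeR's quasi-likelihood test, adjusted p = 0.678), and limma-voom gave 0.39 (adjusted p = 0.712).

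The 2 skull bones gave the same set of calls against femur. Frontal bone had 1 member higher (Sox6) and 4 lower (Sox9, Acan, Comp and Chad) of 8 tested, where 27.2% of all genes were higher and 28.5% lower. Parietal bone had the same 1 member higher and 4 lower, where 27.1% of all genes were higher and 28.6% lower. Both contrasts use the same femur libraries. Between frontal and parietal bone 0 of 8 tested members passed by edgeR's quasi-likelihood test or limma-voom and 1 by DESeq2 (Sox6), with 2 members, Sox6 and Sox9, at an unadjusted p under 0.05 by each tool. Of all genes, 3.3% were lower and 3.91% higher in frontal bone than in parietal bone.

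**Figure D3:**
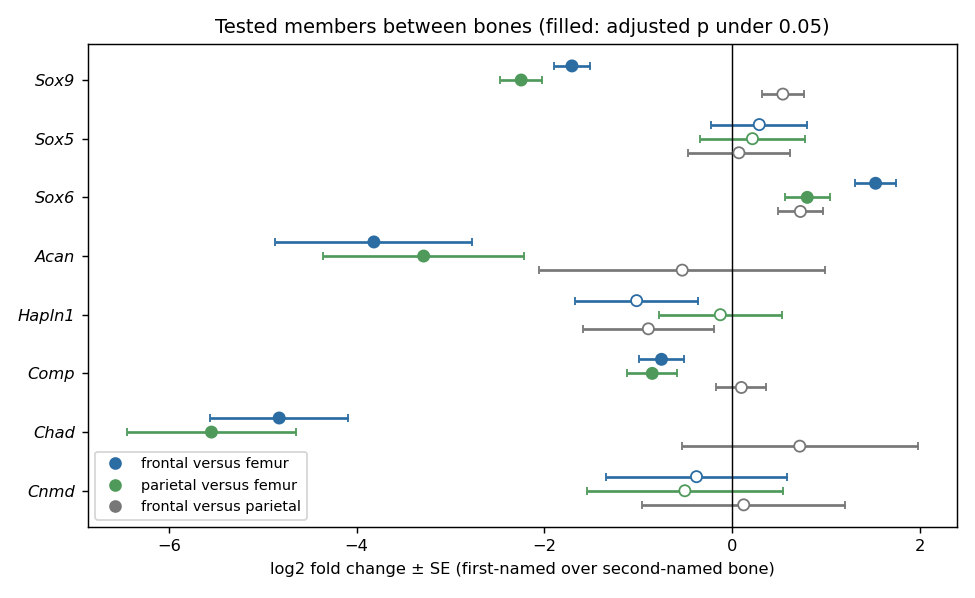
Log2 fold change with its SE for the 8 tested members in 3 contrasts, on a linear axis; filled points passed an adjusted p of 0.05 and open points did not. Sox9, Acan, Comp and Chad lie left of 0 and Sox6 right of 0 in both contrasts with femur, and no point for frontal versus parietal bone is filled.

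Levels of different genes were compared per kilobase of exon. In femur the order was Sox9 at 7.65 ± 0.77 CPM per kb (SD, n = 3), Chad at 7.45 ± 6.61, Comp at 7.12 ± 1.53 and Sox6 at 1.55 ± 0.38. The first 3 did not differ beyond their spread, and the other 6 members had means of 0.0824 to 0.385 CPM per kb. In calvaria the order was Comp at 4.11 ± 0.91 CPM per kb (SD, n = 5), Sox6 at 3.80 ± 1.30 and Sox9 at 2.05 ± 0.46, with Comp and Sox6 within each other's spread, and the other 7 members had means of 0.0164 to 0.297 CPM per kb. Relative to Comp in the same library, Chad per length was 0.798, 0.398 and 1.69 in femur libraries 1, 2 and 4, and 0.0203 to 0.119 in the calvarial libraries.

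The femur libraries differed among themselves in several members. Femur library 4 stood above femur libraries 1 and 2 pooled by 4.42-fold for Acan (exact 95% counting interval 2.24 to 9.23), by 4.45-fold for Chad (3.47 to 5.73), by 2.22-fold for Hapln1 (1.15 to 4.33) and by 1.4-fold for Comp (1.18 to 1.67). Cnmd, with 16 counts against 2, had a ratio of 15.3 (3.6 to 137). Sox9 and Sox6 had ratios of 1.01 (0.871 to 1.18) and 0.974 (0.819 to 1.16). The intervals cover counting error only, and the femur libraries differed from each other by more than that over all genes (chi-square over its degrees of freedom of 16 to 35), so the ratios describe these libraries and are no test of the members.

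Among the cartilage collagens, Col2a1, Col11a1 and Col11a2 were lowest in femur library 4. Col2a1, the chief collagen of cartilage, was at 786, 648 and 231 CPM in femur libraries 1, 2 and 4, a ratio of 0.332 (0.316 to 0.348) for library 4 over the other 2. Col11a1, which codes for a chain of the fibrils' core, had a ratio of 0.517 (0.491 to 0.543) and Col11a2 one of 0.837 (0.81 to 0.864). The less abundant Col9a1, Col9a2, Col9a3 and Col10a1 had ratios of 1.79, 1.06, 1.17 and 1.62, with intervals that include 1. Dmp1, a matrix protein of osteocytes, had a ratio of 0.453 (0.45 to 0.455), and Sost, which codes for the Wnt inhibitor sclerostin, one of 1.84 (1.76 to 1.92). Summed chondrocyte markers were 1709, 1321 and 871 CPM in femur libraries 1, 2 and 4, tendon and ligament markers 124, 108 and 116 CPM, and articular surface markers 90.7, 77.9 and 128 CPM. The articular sum was nearly all Clu, at 89.0, 74.6 and 127 CPM, a gene also made by many other cells. Prg4 (0.686, 1.79 and 0.466 CPM), Cilp (0.343, 0.471 and 0.116 CPM) and Cilp2 (0.686, 1.04 and 0.582 CPM) were each lowest in library 4. Their counts were few: 4, 19 and 4 for Prg4, 2, 5 and 1 for Cilp, and 4, 11 and 5 for Cilp2. The chondrocyte sum was nearly all Col2a1 and Col11a2, and the low genes of that list were divided. Col9a1, Col9a3 and Snorc were each highest in library 4, Snorc from 0, 3 and 6 counts in libraries 1, 2 and 4. Matn4 (3.8, 1.7 and 2.3 CPM) and Col9a2 (0.69, 0.47 and 0.58 CPM, from 4, 5 and 5 counts) were highest in library 1. Cytl1 (0.17, 0.94 and 0.93 CPM, from 1, 10 and 8 counts) and Ucma (0, 1 and 0 counts) were highest in library 2. These orders rest on few counts and were not tested. Summed erythroid markers were highest in femur library 4, as given above. So were granulocyte markers, at 17190, 30620 and 42590 CPM in libraries 1, 2 and 4. Their part in the levels of Acan, Chad and Cnmd was not tested.

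**Figure D4:**
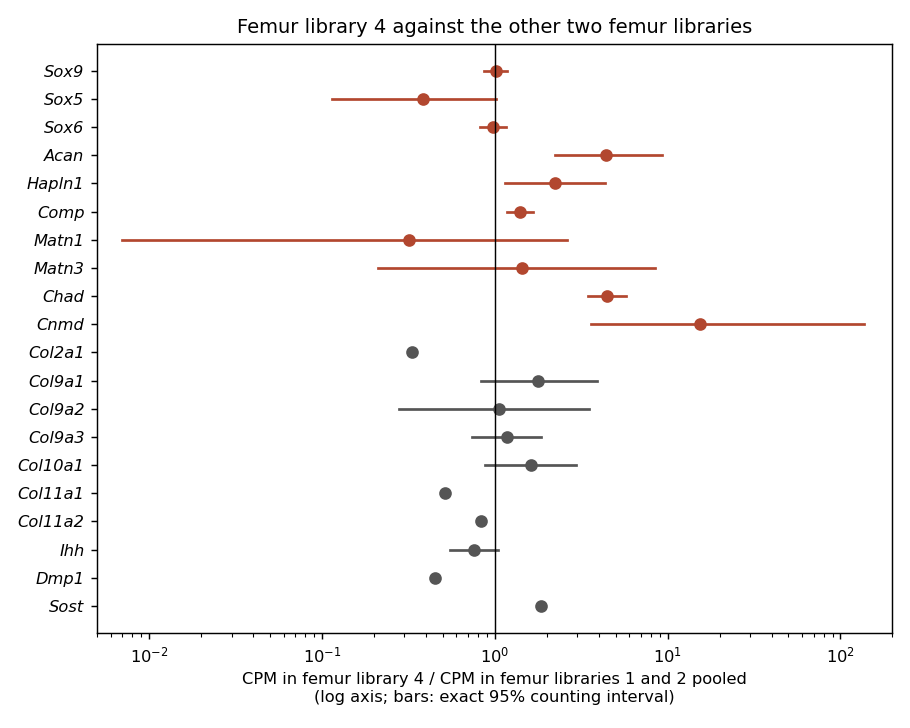
Ratio of CPM in femur library 4 to CPM in femur libraries 1 and 2 pooled, on a log axis; bars are exact 95% counting intervals and the line marks a ratio of 1. The 10 members are in red and 10 genes of cartilage collagens, the growth plate and osteocytes in grey. Acan, Hapln1, Comp, Chad and Cnmd lie to the right of 1, and Col2a1, Col11a1, Col11a2 and Dmp1 to the left.

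Measured against 10 chondrocyte markers, the femur fractions did not show a full cartilage profile. Col2a1 and Col11a2 reached means of 555 ± 289 and 736 ± 155 CPM in femur (SD, n = 3) and Col9a3 3.49 ± 0.32 CPM. Col9a1 and Col9a2, whose products sit on the surface of type II collagen fibrils, were at 1.16 ± 0.62 and 0.580 ± 0.108 CPM. Snorc and Cytl1, both cartilage genes, were at 0.327 ± 0.351 and 0.682 ± 0.442 CPM, Ucma had 1 count over the 3 femur libraries and Epyc none. Summed, the list stood at 871 to 1709 CPM in femur and at 15.0 to 127 CPM in calvaria, where Cytl1 was at 0. Of its 5 tested genes 4 fell in calvaria and 0 rose, and 2 of the 5 (Col9a1 and Col9a3) reached the count minimum in femur alone.

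**Figure D5:**
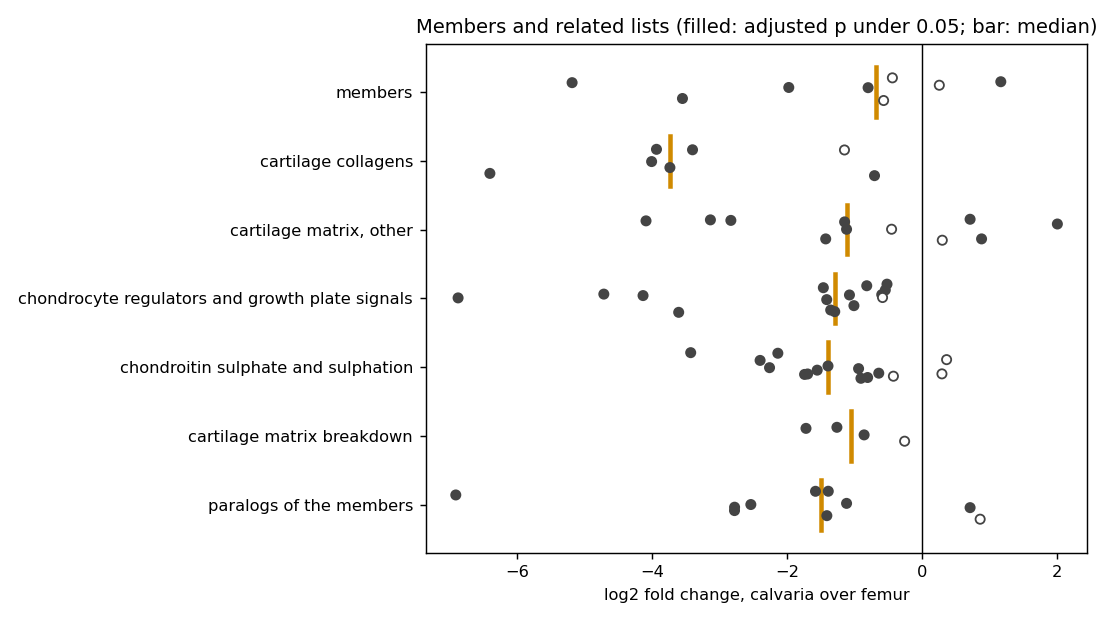
Log2 fold change of calvaria over femur for the tested genes of the members and of 6 related lists, on a linear axis. Each point is a gene, filled where it passed an adjusted p of 0.05, the orange bar is the list median and vertical scatter within a list has no meaning. Members have a median of -0.69 and points on both sides of 0, and the cartilage collagens, the regulators and the breakdown list have no point right of 0.

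The related lists were drawn up around the members' roles with earlier results of these data known, so their counts are no independent support. They lay mostly below 0 in calvaria against femur, where 31.4% of all genes were lower and 29.6% higher. A gene that reached the filter level (1.09 CPM in 2 libraries) in femur and not in calvaria could be seen to fall only, so such genes are counted apart. Of the 8 cartilage collagens 7 were tested, 6 fell and 0 rose, with a median log2 fold change of -3.74. Col9a1, Col9a3 and Col10a1 reached the level in femur alone and gave 2 of the falls, and the other 4 tested collagens all fell. By the smallest p they were led by Col11a1 (-4.01), Col9a3 (-3.40) and Col2a1 (-6.40), the last from 555 ± 289 CPM in femur (SD, n = 3) to 6.35 ± 3.86 CPM in calvaria (n = 5). Of 21 other genes of the cartilage matrix 11 were tested, 6 fell and 3 rose, with a median of -1.12, and 1 of the falls (Frzb) was of a gene at that level in femur alone. Those with the smallest p were Susd5, which codes for a hyaluronan-binding domain protein (-4.09), Fmod, which codes for the fibril-binding fibromodulin (-3.14), and Wif1, which codes for a secreted Wnt inhibitor (-1.43). The 3 that rose were Scrg1 (2.00), Vit (0.88) and Matn2 (0.71), named after their values were seen, and this count was 1 when femur library 1 or 4, frontal library 2, or either parietal library was left out.

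Of 24 regulators of chondrocytes and signals of the growth plate 15 were tested, 14 fell and 0 rose, with a median log2 fold change of -1.30. Foxa3, Ihh, Nppc and Wnt9a reached the level in femur alone, and of the other 11 tested genes 10 fell and 0 rose. The smallest p were those of Foxa3, a transcription factor (-6.88), Ihh, the hedgehog ligand made by prehypertrophic chondrocytes (-3.61), and Trps1, a repressor of the growth plate (-1.36). Ihh stood at 7.89 ± 1.25 CPM in femur (SD, n = 3) and 0.641 ± 0.459 CPM in calvaria (n = 5), and the femur libraries were close to each other, with a ratio of 0.763 (exact 95% counting interval 0.551 to 1.04) for library 4 over the other 2. Of 4 hypertrophic chondrocyte markers, Ihh and Col10a1 (-3.94) fell, both at the filter level in femur alone. Panx3, at that level in calvaria alone, rose (1.295), and Mmp13 did not pass (-0.26). The skull bones were not alike in these genes. Against femur, Panx3 rose in parietal bone (2.14) and did not pass in frontal bone (0.45), and frontal against parietal bone passed (-1.69). Mmp13 fell in frontal bone (-0.64) and did not pass in parietal bone (0.12), nor did frontal against parietal bone (-0.77). The sum of the 4 markers, nearly all Mmp13, was 1913 to 2714 CPM in femur and 1062 to 2549 CPM in calvaria. All 15 genes for making and sulphating chondroitin sulphate, the chains that aggrecan carries, were tested and reached the level in both, and 12 fell and 0 rose, with a median of -1.40. Chsy1 (-2.26) and Chsy3 (-3.43), which code for chondroitin synthases, and Ugdh (-1.56), which codes for the enzyme of their sugar donor, had the smallest p.

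Of the 5 genes for breaking down cartilage matrix or for checking its breakdown 4 were tested, 3 fell and 0 rose, with a median of -1.06, and all 4 reached the level in both. They were Adamts4 (-1.72) and Adamts5 (-0.86), which code for aggrecan-cleaving proteases, and Timp3 (-1.26), which codes for their inhibitor. Adamts4 was at 127 ± 4.97 CPM in femur (SD, n = 3) and 38.7 ± 5.97 CPM in calvaria (n = 5). The genes that these 5 lists named by their smallest p passed under all 14 alternatives run. Many of these genes are also made by bone cells, most of whose markers fell as well, and the part of those cells was not tested.

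Paralogs were set beside the members they resemble. Of 17 paralogs 10 were tested, 8 fell and 1 rose in calvaria, with a median log2 fold change of -1.50. Thbs3, Thbs4 and Sox8 reached the filter level in femur alone, and of the other 7 tested paralogs 5 fell and 1 rose. Comp belongs to the thrombospondins, and its relatives had log2 fold changes of -1.58 (Thbs1), -2.78 (Thbs2), -2.78 (Thbs3) and -6.91 (Thbs4), beside -0.80 for Comp, and the differences between these genes were not tested. Thbs4, which is abundant in tendon, fell from 52.6 ± 8.47 CPM in femur (SD, n = 3) to 0.459 ± 0.351 CPM in calvaria (n = 5). Vcan, the versican relative of Acan, had a log2 fold change of -1.41, from 30.0 ± 10.4 to 11.0 ± 1.67 CPM.

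The matrilin relatives divided, with Matn2 higher in calvaria (0.71, edgeR's quasi-likelihood test, adjusted p = 0.0293) and Matn4 lower (-1.12, adjusted p = 0.0482), the first at 3.47 ± 0.93 CPM in femur and 5.71 ± 0.92 CPM in calvaria. When femur library 4, frontal library 2 or either parietal library was left out, Matn2 did not pass and the count of paralogs that rose was 0. Sox8, which is close to Sox9 in sequence, fell by 2.54 on the log2 scale, from 2.37 ± 0.51 to 0.425 ± 0.315 CPM, and Sox13, which is close to Sox5 and Sox6, fell by 1.39, from 4.12 ± 0.78 to 1.64 ± 0.57 CPM. Tnmd, the tenomodulin relative of Cnmd and also a tendon marker, was at 6.80 ± 3.02 CPM in femur and 12.1 ± 7.26 CPM in calvaria, a difference of 0.86 that did not pass (adjusted p = 0.055). Against femur, Tnmd rose in parietal bone by 1.54 (edgeR's quasi-likelihood test, adjusted p = 0.00764), while its difference of 0.18 in frontal bone did not pass. Compared directly, frontal bone differed from parietal bone by -1.36, which did not pass by the same test (adjusted p = 0.0617).

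The genes with the most similar profiles over the 8 libraries were looked up for Sox9, Acan and Comp, by the root mean square difference between log2 CPM values centred on each gene's mean, among 10486 genes. Those nearest to Sox9 were Adgrl2 (0.09), Phrf1 (0.12) and Mest (0.12). Adgrl2 was at 43.6 ± 5.12 CPM in femur (SD, n = 3) and 11.1 ± 2.54 CPM in calvaria (n = 5). Those nearest to Comp were Etnk1 (0.14), Zfyve1 (0.15) and Atad2b (0.16). For Acan the nearest, Trib3 (0.52), Fmnl3 (0.53) and N4bp3 (0.54), were less alike. These distances describe 8 libraries that fall into the femur and the calvaria.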

How the data were processed

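The deposited raw counts, whole numbers per gene for 8 libraries, were used as the authors left them. Libraries were prepared with Nextera XT and sequenced from both ends, per the labels' protocols. The filtered and the scaled tables were not used. The submitters' processing notes name the aligner STAR (2.5.2a), the builds mm10 and GRCm38.p3, and limma, edgeR and DESeq2. How reads were counted, on which strand and with which annotation, is not given in the sources used here. The 92 spike-in rows (0.0286 to 0.176% beside the gene counts) were left out. No columns of other samples were found (0).

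Genes were kept by filterByExpr (15511 of 43346), scaled by TMM and tested with edgeR 4.0.16's quasi-likelihood model in R 4.3.3, with bone as the group, 8 libraries and 5 residual degrees of freedom. Calvaria is the mean of frontal and parietal bone. Genes were called at an adjusted p under 0.05 over all genes tested. DESeq2 1.42.0 and limma 3.58.1 were alternatives. The edgeR step was tested on simulated data. Each SE was computed from the F statistic of its fold change. Counting intervals are exact at 95% and cover counting error only. GENCODE M21 (GRCm38) gave the positions. Figures were drawn with matplotlib 3.10.9.

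The members and the lists were chosen with earlier results of these data known. Named from each related list were the 3 tested genes with the smallest p in calvaria versus femur, paralogs beside their members, and the 3 genes most alike to Sox9, Acan and Comp with a mean of at least 5 CPM. Markers served only to describe the libraries. Libraries of 1 bone differed by more than sampling noise in every pair (lowest chi-square over its degrees of freedom, 7.16).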

Additional observations from a re-analysis of the deposited data

How the results depend on the processing

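Each log2 fold change of a tested member was recomputed under 10 to 15 alternatives. Of these values 408 kept their direction and their side of the threshold, 16 changed sign, 11 lost the call and 6 gained it, and the cause was not tested. Sox9, Sox6, Comp and Chad kept their calls for calvaria against femur in all alternatives, and Acan in those in which it could be tested.

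The values that changed sign all belong to differences that had not passed. With limma-voom, Cnmd went to 0.39 for calvaria, 0.35 for frontal and 0.43 for parietal bone against femur, and to -0.08 for frontal against parietal bone. Without femur library 4, Sox5 went to -0.088 for calvaria, -0.048 for frontal and -0.127 for parietal bone against femur and Hapln1 to 0.36 in parietal bone. Without frontal library 2, Sox5 went to -0.20 against femur and to -0.42 against parietal bone, and Comp to -0.17 against parietal bone. Without parietal library 2, the differences of frontal from parietal bone were 0.23 for Acan, -0.021 for Comp and -0.14 for Sox5. Without parietal library 4, Sox5 was -0.097 in parietal bone against femur and Cnmd -0.096 in frontal against parietal bone.

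Over the fits with 1 library left out, Sox5 ranged from -0.088 to 0.592 for calvaria, -0.195 to 0.627 for frontal and -0.127 to 0.557 for parietal bone against femur, and -0.415 to 0.386 for frontal against parietal bone. Hapln1 in parietal bone ranged from -0.37 to 0.362. Between frontal and parietal bone Acan ranged from -3.742 to 0.225, Cnmd from -0.096 to 0.535 and Comp from -0.168 to 0.309.

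The count of members that fell from femur to frontal bone, 4, differed in 5 of the 8 fits with 1 library left out (without femur library 1 or 4 or any frontal library), and that for parietal bone, also 4, in 4 of 8 (without femur library 1 or 4 or either parietal library). With 1 library left out, 2 to 5 members fell in frontal bone and 2 to 4 in parietal bone, with 2 in each case without femur library 4 and, for parietal bone, without parietal library 2, and 0 to 1 rose in parietal bone. In frontal against parietal bone 1 member, Sox6, was higher with DESeq2, without the filter on low counts and with only these 2 bones in the fit, and 0 to 1 with 1 library left out. All genes called between these bones numbered 1119, but 2225 with DESeq2, 1904 without the filter and 0 to 1962 with 1 library left out; the 0 was reached when femur library 2, frontal library 1 or either parietal library was left out, where 2520 to 4059 genes had an unadjusted p under 0.05 by edgeR.

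Deviations from the bone mean had correlations of -0.103 to 0.145 between same-numbered libraries of different bones (15511 genes). Between different-numbered libraries they were -0.145 to 0.172. With 2 or 3 libraries per bone, the deviations within a bone are bound to each other, so these values cannot decide whether same-numbered libraries are paired. The labels do not say that a number marks an animal. With the number as a replicate block, all genes called between frontal and parietal bone were 0, with 3504 at an unadjusted p under 0.05, and Sox9 in calvaria was -1.96. This paired fit changed no call of a member.

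Library size as the only scaling moved the median log2 fold change of all genes from 0.01 to 0.11 for calvaria and from 0.02 to 0.16 for frontal bone against femur. Depth limits Sox5, Acan, Hapln1, Matn1, Matn3 and Cnmd, whose libraries hold 0 to 30 counts.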
